A study of Mus with 16 samples.

Results

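The genes followed here, 10 in all, mark neural progenitors, newborn neurons, and dividing cells in mouse forebrain, out of 54219 Ensembl genes counted. They were taken by their Ensembl identifiers. The tissue was the cortex and hippocampus, dissected together at postnatal day 6, and bulk poly(A) RNA of 16 animals was sequenced. The groups were 4 wild-type (WT) males, 4 *Kdm5c* hemizygous knockout males (*Kdm5c*-KO), 4 WT females, and 4 *Kdm5c* heterozygous females (*Kdm5c*-HET). *Kdm5c* lies on the X chromosome and encodes a demethylase of histone H3 lysine 4. Mutant animals carried an allele that lacks exons after Cre recombination, and 129S1/SvImJ and C57BL/6J both contributed to their strain background. The labels list no treatment. Each animal carries a number and the letter D or E in its label, which the sources used here do not explain. Letter E was carried by 1 of 4 WT males, 2 of 4 *Kdm5c*-KO males, 2 of 4 WT females, and 3 of 4 *Kdm5c*-HET females. The letter was therefore unevenly spread over the genotypes. The study's samples came from several litters, which the labels do not assign to animals.

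In the embryonic forebrain, radial glia line the ventricles and divide to renew themselves or to give rise to intermediate progenitors and neurons. Newborn neurons switch off progenitor genes, migrate, and mature. Soon after birth, most cortical neurons have already been born, but divisions go on in the subventricular zone, in glial progenitors, and in the dentate gyrus of the hippocampus, where granule neurons continue to be added. In a bulk sample, fewer cells of a type and less RNA per cell cannot be told apart.

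All 10 genes passed the filter on low counts, as did 17866 genes in all. The total count per animal was between 21513783 and 30063352. Levels are given as TMM-normalized CPM, the count scaled to a common library size, which carry no correction for gene length, so levels of different genes are not compared. The spread between animals of a group set the precision for most of these genes, since the counts were high. *Dcx*, on the X chromosome and known for its tubulin-binding protein doublecortin in migrating neurons, had 21538 to 35525 counts per animal. *Eomes* (Tbr2), the transcription factor of intermediate progenitors, had only 38 to 128. Its biological coefficient of variation was 22.8%, the highest of the 10 genes, against 6.02% for *Sox2*, the lowest, and a median of 8.95% over all genes tested.

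The genes are placed here on GRCm38.p6 (mm10) by their RefSeq records. The progenitor genes are *Sox2* (ENSMUSG00000074637) at chr3:34649995-34652461, *Nes* (ENSMUSG00000004891) at chr3:87971093-87980451, *Pax6* (ENSMUSG00000027168) at chr2:105668896-105698410, and *Hes5* (ENSMUSG00000048001) at chr4:154960626-154962372. The intermediate progenitor gene is *Eomes* (ENSMUSG00000032446) at chr9:118478186-118486132. The newborn neuron genes are *Neurod1* (ENSMUSG00000034701) at chr2:79452637-79456636, *Prox1* (ENSMUSG00000010175) at chr1:190118035-190170827, and *Dcx* (ENSMUSG00000031285) at chrX:143855842-143933396. The division genes are *Mki67* (ENSMUSG00000031004) at chr7:135689784-135716450 and *Top2a* (ENSMUSG00000020914) at chr11:98992947-99024199. *Sox2*, *Pax6*, *Eomes*, *Prox1*, and *Top2a* overlap other annotated genes (*Sox2ot*, *Pax6os1* and *Elp4*, *Gm33408*, *Prox1os*, and *LOC115487886*, respectively). The sources used here do not give the strand setting of the counting, so reads of an overlapping gene may be among their counts. The other 5 genes overlap no annotated gene.

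To assess what complete loss of *Kdm5c* did to these genes, *Kdm5c*-KO males were compared with WT males. *Nes* was higher in *Kdm5c*-KO males, with a log2 fold change (Log2FC) of 0.37. It alone passed an adjusted p-value (q) of 0.1 in edgeR's quasi-likelihood test, 1 of 10 genes against 5.24% of all genes tested (3.55% higher and 1.69% lower). The other 9 genes did not pass. The Log2FC was above 0 for 9 of the 10 genes, with a median of 0.16, against a median of -0.0072 over all genes tested. That median was 0.088 with the letter as a covariate (8 genes above 0) and 0.034 among animals of letter D (6 above 0), and it was 0.079 without *Kdm5c*-KO 2E and 0.26 without *Kdm5c*-KO 6D. The signs of the 10 genes are not independent, since several of these genes varied together across animals, as given below. The animals' values overlapped between genotypes for every one of the 10 genes, while 5.04% of all genes tested had every *Kdm5c*-KO male above every WT male and 3.87% had every one below.

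*Nes* encodes nestin, the intermediate filament of neural stem and progenitor cells. In WT males, *Nes* was at 41.0 CPM in animal 1E, 36.8 in 2D, 33.6 in 5D, and 34.6 in 7D. In *Kdm5c*-KO males, it was at 53.6 in 2E, 57.4 in 3E, 38.3 in 4D, and 39.3 in 6D. The *Kdm5c*-KO animals 2E and 3E lay above every WT male, whereas 4D and 6D lay below WT animal 1E. The Log2FC of 0.37 had a standard error of 0.11 and a 95% interval of 0.14 to 0.61 (edgeR, q = 0.0824). An exact two-sided permutation test of the same 4 against 4 animals gave p = 0.114, where the smallest value possible is 0.0286. The call was lost without *Kdm5c*-KO 2E (q = 0.256) or 3E (q = 0.288), without WT male 2D (q = 0.167), 5D (q = 0.224), or 7D (q = 0.186), and without *Kdm5c*-HET 6E (q = 0.106). With the letter as a covariate, the *Nes* Log2FC was 0.28 and passed the threshold (SE 0.067, q = 0.0138), as it did with DESeq2 (Log2FC 0.37, q = 0.0346), but not in a fit of the 8 males alone (Log2FC 0.38, q = 0.146). Among animals of letter D alone the Log2FC was 0.16 (q = 0.344), and among animals of letter E alone, where the WT group is 1 animal assumed to vary like the other groups, it was 0.44 (q = 0.035).

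**Figure D1:**
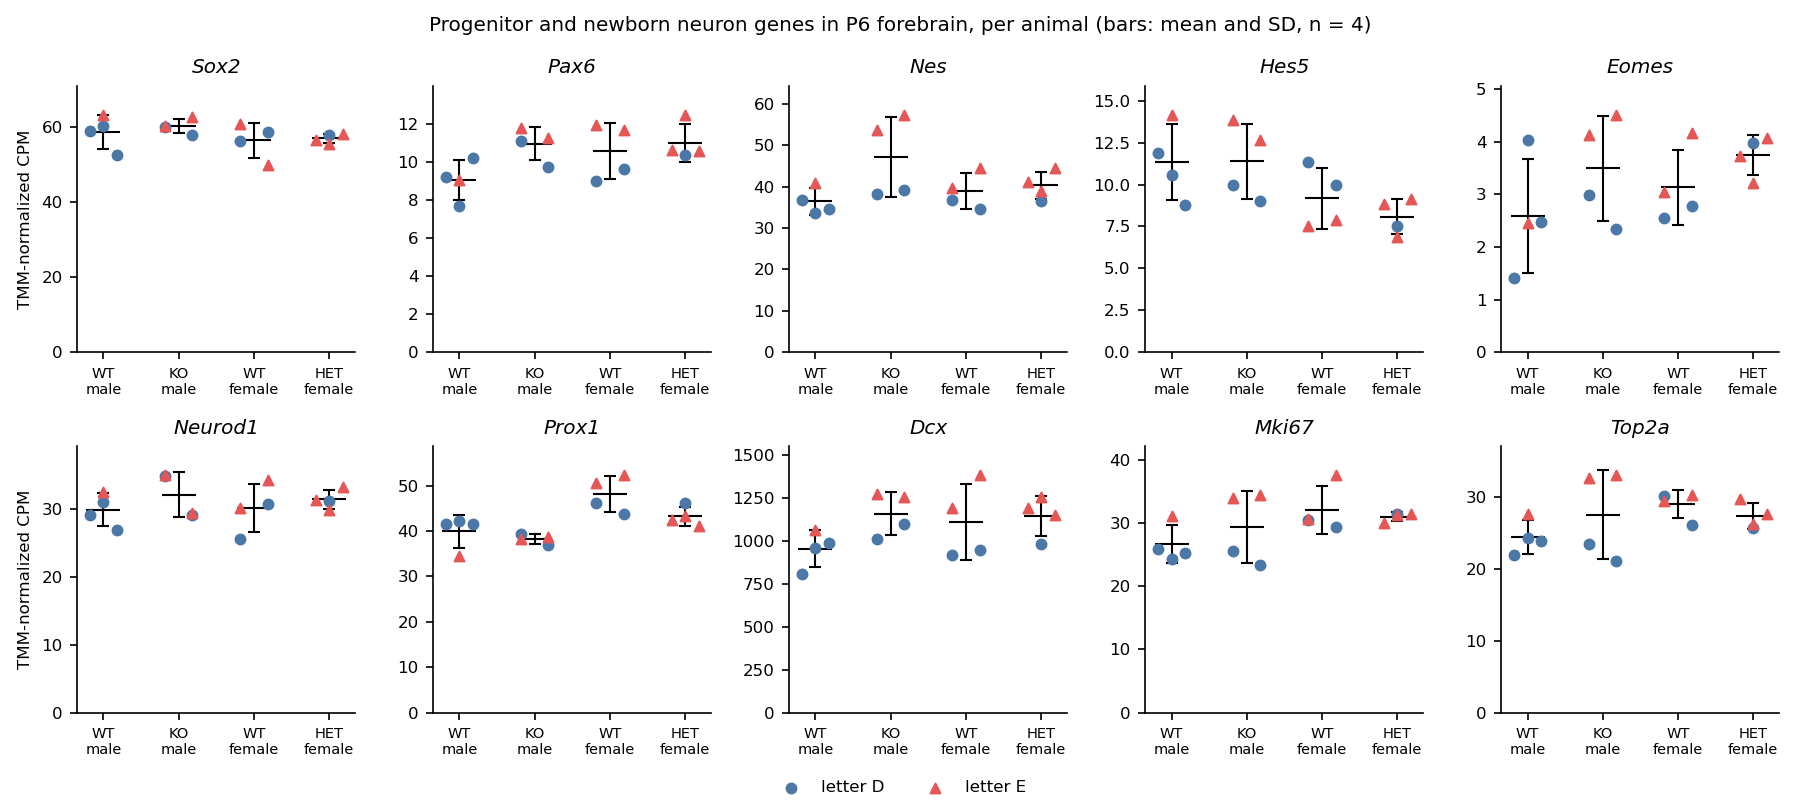
TMM-normalized CPM (y axis, from 0 in each panel) of the 10 genes in each animal by group (x axis). Blue circles are animals of letter D, red triangles those of letter E, and the bars give the mean and SD of 4 animals. In the *Nes* panel, the *Kdm5c*-KO animals of letter E stand at 53.6 and 57.4 CPM, above all other animals, and those of letter D at 38.3 and 39.3 CPM.

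Among the other progenitor genes, *Pax6*, a transcription factor of cortical radial glia, came closest to the threshold. *Pax6* was at 9.05, 9.23, 7.68, and 10.2 CPM in WT males 1E, 2D, 5D, and 7D. It was at 11.8, 11.3, 11.1, and 9.72 CPM in *Kdm5c*-KO males 2E, 3E, 4D, and 6D. All *Kdm5c*-KO males but 6D lay above every WT male. The *Pax6* Log2FC was 0.28 (SE 0.11, q = 0.198), and the exact permutation test gave p = 0.0571. *Sox2*, a transcription factor that keeps cells in the progenitor state, differed little, at 58.7 ± 4.52 CPM in WT males and 60.1 ± 1.94 in *Kdm5c*-KO males (SD, n = 4). Its Log2FC of 0.035 had a 95% interval of -0.090 to 0.16, the narrowest of the 10. *Hes5*, a target of Notch signaling, was at 11.3 ± 2.27 and 11.4 ± 2.24 CPM (SD, n = 4), with an interval of -0.33 to 0.34 around a Log2FC of 0.0067.

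*Eomes* had a Log2FC of 0.43 with a wide interval, -0.10 to 0.96 (q = 0.429), and the value was 0.22 when 2D was left out of the WT males and 0.74 when 5D was. It was at 2.45, 1.42, 4.03, and 2.47 CPM in WT males 1E, 2D, 5D, and 7D. In *Kdm5c*-KO males 2E, 3E, 4D, and 6D, it was at 4.12, 4.52, 2.99, and 2.35 CPM. The WT animals alone spanned most of the range, and the difference was within the spread between animals.

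Of the newborn neuron genes, *Dcx* came closest to the threshold. It was at 1065, 805, 958, and 988 CPM in WT males 1E, 2D, 5D, and 7D. In *Kdm5c*-KO males 2E, 3E, 4D, and 6D, it was at 1273, 1253, 1008, and 1099 CPM. All *Kdm5c*-KO males but 4D lay above every WT male. The *Dcx* Log2FC was 0.28 (SE 0.11, q = 0.221). With the letter as a covariate it was 0.20 and passed the threshold (q = 0.0562). *Neurod1*, a transcription factor that drives neuronal differentiation, was at 29.9 ± 2.44 CPM in WT males and 32.1 ± 3.27 in *Kdm5c*-KO males (SD, n = 4, Log2FC 0.10, q = 0.613 by edgeR). *Prox1*, which marks granule neurons of the dentate gyrus as well as some interneurons, was the only one with a Log2FC below 0 (-0.063, q = 0.709), at 39.9 ± 3.59 and 38.3 ± 1.08 CPM (SD, n = 4).

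The division genes did not pass the threshold in males. *Mki67*, which encodes the proliferation antigen Ki-67, had a Log2FC of 0.14 (q = 0.571). *Top2a*, a DNA topoisomerase of dividing cells, had a Log2FC of 0.18 (q = 0.478). With the letter as a covariate, these were 0.072 for *Mki67* (q = 0.713) and 0.098 for *Top2a* (q = 0.604). Leaving out single animals gave 0.055 to 0.24 for *Mki67* and 0.077 to 0.29 for *Top2a*. In both genes, *Kdm5c*-KO animals 2E and 3E lay above every WT male and 6D lay below every WT male. The spread among *Kdm5c*-KO males was 5.68 CPM (SD) around 29.4 for *Mki67* and 6.21 around 27.6 for *Top2a*, against 3.04 around 26.6 and 2.35 around 24.5 in WT males.

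Markers of other cell types were examined in the male comparison. Few marker symbols could be paired with an identifier, and the pairs come from a list of genes the study itself called on these samples. The markers are therefore not independent evidence of a difference or of its direction. The oligodendrocyte lineage marker *Bcas1* ranged from 13.8 to 20.9 CPM in *Kdm5c*-KO males and from 27.8 to 29.1 CPM in WT males (Log2FC -0.76, q = 0.032). The astrocyte marker *Aqp4* (1 of 7) ranged from 120 to 145 and from 149 to 167 CPM, with a Log2FC of -0.24 that did not pass the threshold (q = 0.115). The hippocampal marker *Zbtb20* (1 of 5) ranged from 139 to 168 and from 111 to 134 CPM (Log2FC 0.27, q = 0.0422). The dorsal forebrain marker *Emx1* ranged from 29.2 to 33.0 CPM in *Kdm5c*-KO males and from 34.4 to 41.0 in WT males (Log2FC -0.23, q = 0.0948). Choroid plexus markers (*Ttr* and *Aqp1*, 2 of 8) ranged from 1.98 to 2.82 CPM in *Kdm5c*-KO males but from 1.48 to 205 CPM in WT males, and hemoglobin genes (3 of 4) from 62.8 to 102 and from 111 to 139 CPM. None of these markers or sums was at 0. Their part in the *Nes* result was not tested.

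The effect of losing 1 copy of *Kdm5c* was examined in females. None of the 10 genes passed the threshold between *Kdm5c*-HET and WT females with edgeR, against 0.509% of all genes tested (0.481% higher and 0.028% lower). Only *Prox1*, 1 gene, had an unadjusted p-value under 0.05, against 6.49% of all genes tested, and DESeq2 called 0 as well. The Log2FC was above 0 for 6 genes and below 0 for 4, and the median of the 10 was 0.030, against -0.00080 over all genes tested. This split turned with the letter as a covariate (4 above 0 and 6 below, median -0.022), without WT female 1D (3 and 7, -0.026) or 3D (4 and 6, -0.014), and without *Kdm5c*-HET 8E (4 and 6, -0.0043). The genotypes overlapped for every one of the 10 genes, while 2.78% of all genes tested had every *Kdm5c*-HET female above every WT female and 1.69% had every one below.

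*Prox1* was at 46.1, 43.7, 50.6, and 52.4 CPM in WT females 1D, 3D, 4E, and 5E. In *Kdm5c*-HET females 6E, 8E, 9D, and 9E, it was at 42.4, 43.4, 46.1, and 41.0 CPM. The 3 *Kdm5c*-HET females of letter E lay below every WT female, and 9D lay among the WT females. The *Prox1* Log2FC was -0.16 (SE 0.07, p = 0.0301, q = 0.669 by edgeR), and the exact permutation test gave p = 0.0571. Among the 5 females of letter E the Log2FC was -0.29 and passed the threshold (q = 0.0526), while among the 3 of letter D, where *Kdm5c*-HET is 9D alone and is assumed to vary like the other groups, it was 0.037 (q = 0.985). The difference between these letter-specific effects, which rests on that 1 animal, was -0.32 (SE 0.10), which failed adjustment over all genes (q = 0.943).

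The other genes are given with the intervals of their female Log2FCs. *Nes* was at 36.8, 34.5, 39.8, and 44.5 CPM in WT females 1D, 3D, 4E, and 5E and at 41.1, 39.0, 36.6, and 44.5 in *Kdm5c*-HET females 6E, 8E, 9D, and 9E. The ranges nearly coincided, and the *Nes* Log2FC was 0.052 with a 95% interval of -0.18 to 0.29. *Pax6* had a Log2FC of 0.064 (-0.16 to 0.29), *Sox2* of 0.013 (-0.11 to 0.14), and *Hes5* of -0.19 (-0.53 to 0.15). *Eomes* had 0.27 (-0.25 to 0.79), *Neurod1* 0.060 (-0.12 to 0.24), *Dcx* 0.048 (-0.19 to 0.29), *Mki67* -0.045 (-0.27 to 0.18), and *Top2a* -0.084 (-0.32 to 0.15), all Log2FCs with 95% intervals.

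Whether the genotype effect differed between the sexes was tested directly as the male minus the female Log2FC. With edgeR, 0 of the 10 genes passed, against 0.0392% of all genes tested. No gene had an unadjusted p-value under 0.05 with edgeR, against 6.37% of all genes tested, and 1 did with DESeq2, which called 0, against 3.51%. With the letter as a covariate 3 of 10 did, against 10% of all genes, and without the filter on low counts 3 did, against 6.18%. The difference was above 0 for all 10 genes, with a median of 0.19 against -0.0041 over all genes tested. Several of these genes varied together across animals, as given below, so the 10 signs are not independent. Leaving out single animals brought the count of genes above 0 to between 8 and 10. The median became 0.10 without *Kdm5c*-KO 2E, 0.11 without WT female 5E, and 0.12 without *Kdm5c*-KO 3E. The difference was 0.32 for *Nes*, with a 95% interval of -0.014 to 0.65 (q = 0.777). For *Nes*, an effect in males alone was thus not shown.

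**Figure D2:**
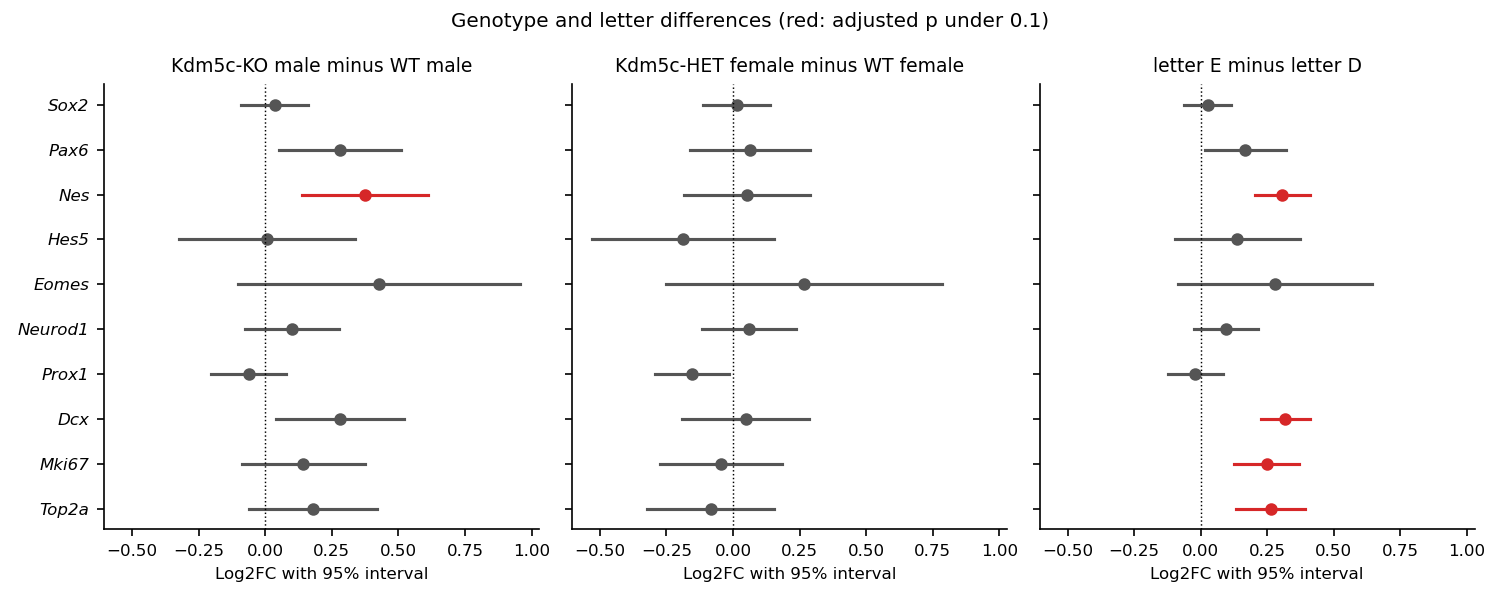
Log2FC with 95% interval (x axis) of each gene (y axis) from edgeR in *Kdm5c*-KO against WT males, *Kdm5c*-HET against WT females, and letter E against letter D with the 4 groups in the fit, with genes at q under 0.1 in red. *Nes* at 0.37 is the only red gene among the genotype effects, while *Nes*, *Dcx*, *Mki67*, and *Top2a* lie between 0.25 and 0.32 for the letter.

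In WT animals, females and males were compared as a baseline. *Prox1* was higher in WT females, 1 of 10 genes called against 5% of all genes tested (2.59% higher and 2.41% lower). The WT female values of 43.7 to 52.4 CPM lay above every WT male, which were at 34.6, 41.6, 42.2, and 41.5 CPM in 1E, 2D, 5D, and 7D. The share of all genes tested that separate the WT sexes in this way was not computed. The *Prox1* Log2FC was 0.27 (SE 0.07, q = 0.0448), and the call was lost without WT female 4E (q = 0.113) or 5E (q = 0.171) or WT male 5D (q = 0.116). The calls over all genes also rested on single animals, with 463 higher and 431 lower when all animals were kept. Without WT female 5E they were 35 and 34, and without WT male 5D they were 46 and 27. Among the paired markers reported here, *Zbtb20* was higher in WT females (Log2FC 0.35, q = 0.0255), and the hemoglobin gene *Hba-a1* (Log2FC -0.40, q = 0.0417) and *Emx1* (Log2FC -0.24, q = 0.0823) were lower. Their part in the *Prox1* difference was not tested. Over the 4 groups, mean *Prox1* ran in the order WT female at 48.2, *Kdm5c*-HET at 43.2, WT male at 39.9, and *Kdm5c*-KO at 38.3 CPM. Neighbours in this order were not shown to differ, since neither genotype effect passed the threshold and the ranges of *Kdm5c*-HET females and WT males overlapped. *Mki67* and *Top2a* had Log2FCs of 0.27 (q = 0.203) and 0.25 (q = 0.26) between WT females and WT males.

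The letter in the animal labels was compared next, with the 4 groups kept in the fit. Of the 10 genes, 4 were higher in animals of letter E, namely *Nes*, *Dcx*, *Mki67*, and *Top2a*, and 0 were lower. Among all genes tested, 23.6% were called, 11.6% higher and 12% lower, so a call for the letter was common across the transcriptome. The median Log2FC of the 10 genes was 0.21, against 0.0088 over all genes tested. The effects were 0.32 for *Dcx* (SE 0.04, q = 2.71e-05), 0.31 for *Nes* (SE 0.05, q = 0.000122), 0.26 for *Top2a* (SE 0.06, q = 0.00466), and 0.25 for *Mki67* (SE 0.06, q = 0.00475).

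*Dcx* did not overlap between the letters in females. Its values were 915, 944, and 980 CPM in females 1D, 3D, and 9D and 1149 to 1383 CPM in the 5 females of letter E. In males, the letter D animals ranged from 805 to 1099 CPM and the letter E animals from 1065 to 1273, with *Kdm5c*-KO 6D above WT 1E. *Nes* did not overlap between the letters in either sex, with 33.6 to 39.3 CPM in the 5 males of letter D, 41.0 to 57.4 in the 3 males of letter E, 34.5 to 36.8 in the 3 females of letter D, and 39.0 to 44.5 in the 5 females of letter E. Across the sexes only *Kdm5c*-HET 8E, at 39.0 CPM, lay below the highest letter D animal.

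*Pax6* had a Log2FC of 0.17 for the letter (q = 0.126) and *Eomes* of 0.28 (q = 0.309). *Neurod1* was at 0.095 (95% interval -0.026 to 0.22), *Sox2* at 0.026 (-0.063 to 0.12), *Prox1* at -0.020 (-0.12 to 0.082), and *Hes5* at 0.14 (-0.098 to 0.37). *Pax6* passed the threshold without WT male 7D (q = 0.0728) or 1E (q = 0.0909), and *Eomes* without WT male 5D (q = 0.0846).

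**Figure D3:**
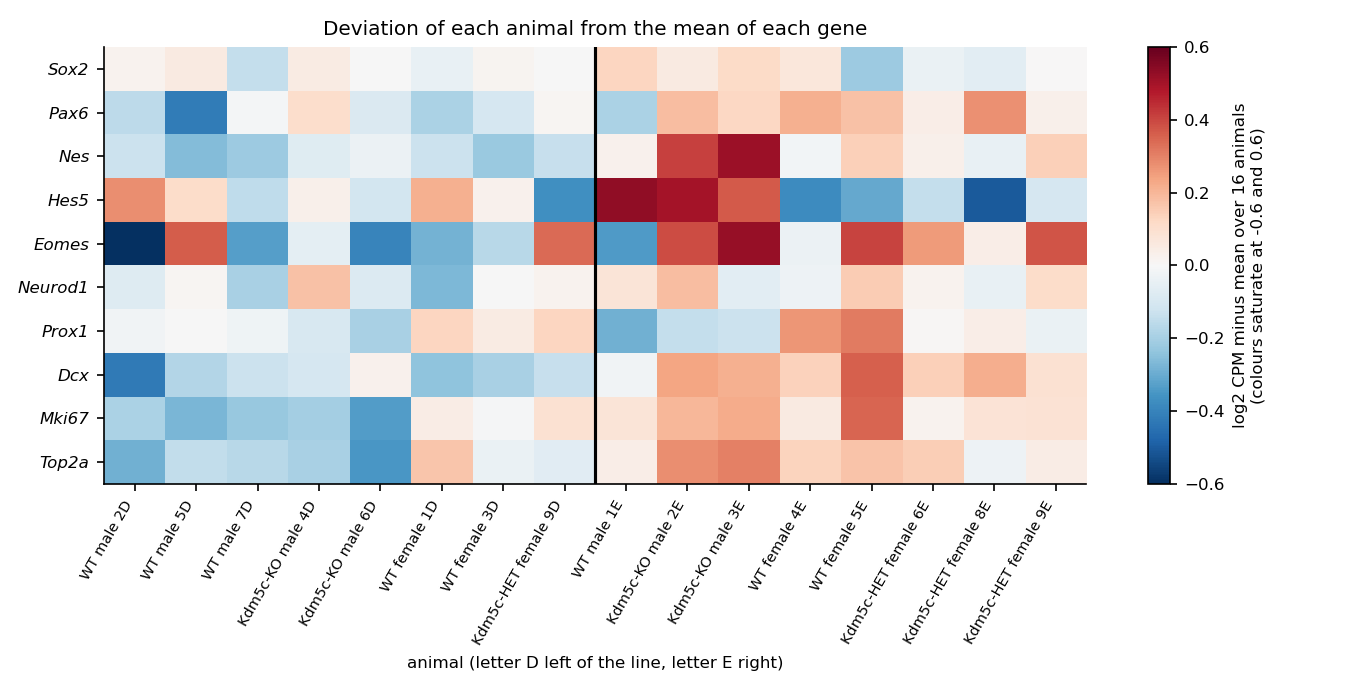
Log2 CPM of each gene (rows) in each animal (columns) minus the mean of that gene over the 16 animals, with red above and blue below the mean and colours saturating at -0.6 and 0.6. Animals of letter D are left of the black line and those of letter E right of it. *Nes*, *Dcx*, *Mki67*, and *Top2a* are mostly blue on the left and red on the right, while *Hes5* in letter E is red in the males and blue in the females.

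The letter effect was then estimated in each sex, a split added after the data were seen. In males, 5 genes were higher in letter E, against 14.2% of all genes called, with Log2FCs of 0.46 for *Hes5* (q = 0.0196), 0.43 for *Top2a* (q = 9e-04), 0.41 for *Mki67* (q = 0.000891), 0.40 for *Nes* (q = 0.000507), and 0.24 for *Dcx* (q = 0.0111). In females, 2 genes were, against 11.1%, with 0.39 for *Dcx* (q = 0.000296) and 0.22 for *Nes* (q = 0.0486). Every letter E animal lay above every letter D animal for 4 genes in males (*Nes*, *Hes5*, *Mki67*, and *Top2a*), against 6.03% of all genes tested, and for 3 in females (*Pax6*, *Nes*, and *Dcx*), against 6.95%.

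*Hes5* had opposite signs in the sexes. In males, it was at 11.9, 10.5, 8.79, 9.99, and 9.04 CPM in WT 2D, 5D, and 7D and *Kdm5c*-KO 4D and 6D, and at 14.2, 13.9, and 12.6 in WT 1E and *Kdm5c*-KO 2E and 3E. In females, it was at 11.3, 9.96, and 7.55 CPM in WT 1D and 3D and *Kdm5c*-HET 9D, and at 7.50, 7.89, 8.84, 6.86, and 9.11 in WT 4E and 5E and *Kdm5c*-HET 6E, 8E, and 9E. The male letter E animals were all above the male letter D animals, whereas in females the letters overlapped. The female Log2FC was -0.22 (q = 0.351), and the difference of the sexes, 0.68 (SE 0.18), failed adjustment over all genes (q = 0.376).

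*Mki67* was at 23.4 to 25.9 CPM in males of letter D and at 31.1 to 34.5 in males of letter E. In females, *Mki67* was at 29.4 to 31.5 CPM in letter D and 29.9 to 37.6 in letter E, so that only males of letter D stood low. *Top2a* showed the same layout, with 21.1 to 24.3 and 27.6 to 33.2 CPM in males and 25.7 to 30.2 and 26.3 to 30.3 in females. The male minus female letter effect was 0.31 for *Mki67* (q = 0.508) and 0.33 for *Top2a* (q = 0.513). With edgeR, 0 of 10 genes passed this test of the difference, against 0.0112% of all genes tested, and 3 had an unadjusted p-value under 0.05, against 7.44% of all genes tested. DESeq2 was not run for this split.

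**Figure D4:**
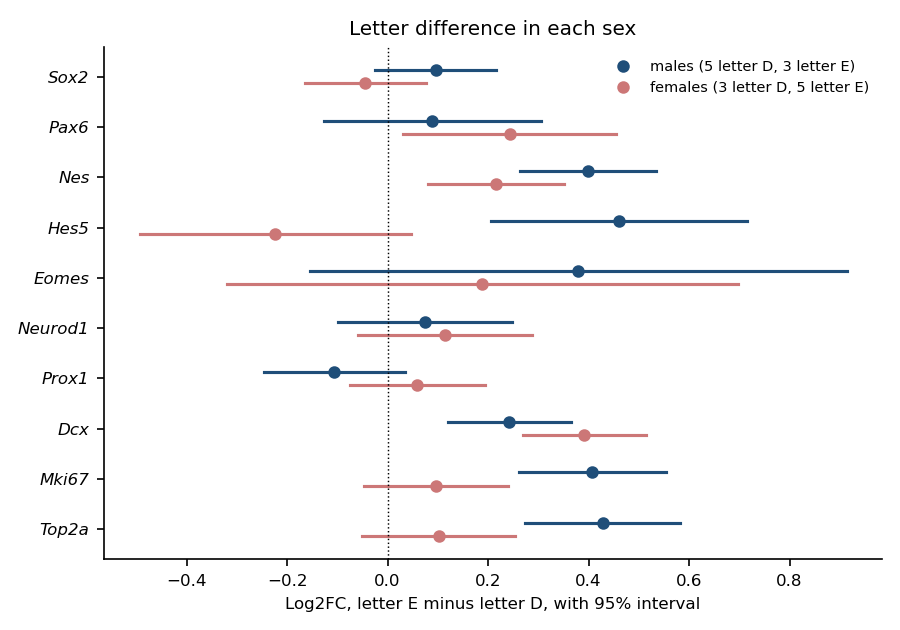
Log2FC of letter E against letter D with 95% interval (x axis) for each gene (y axis), in males (blue, 5 animals of letter D and 3 of letter E) and in females (pink, 3 and 5). The intervals of *Hes5*, 0.21 to 0.72 in males and -0.49 to 0.046 in females, do not meet, while those of *Nes* and *Dcx* lie above 0 in both sexes.

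The same markers were examined for the letter. *Bcas1* of the oligodendrocyte lineage was lower in letter E (Log2FC -0.50, q = 0.000119), with a median of 18.8 CPM in letter E and 29.1 in letter D and overlapping ranges. *Aqp4* was lower by a Log2FC of -0.20 (q = 0.000214), with 120 to 152 against 142 to 170 CPM. The hippocampal marker *Zbtb20* had a Log2FC of 0.070 (q = 0.361), and *Emx1* of -0.015 (q = 0.887). In the fit over all groups, the choroid plexus markers were lower in letter E. *Aqp1* had a Log2FC of -1.28 (q = 0.00447) and *Ttr* of -3.19 (q = 0.0910). The letter did not order *Ttr* in every group. Among WT animals of letter D, *Ttr* was at 181, 191, 201, 202, and 5.60 CPM in 1D, 3D, 2D, 5D, and 7D. WT animals 4E, 5E, and 1E were at 3.29, 4.25, and 0.277 CPM. In *Kdm5c*-HET females, it was at 0.669 CPM in 9D and at 3.62, 84.5, and 57.7 in 6E, 8E, and 9E. *Kdm5c*-KO males had 2.21 and 1.59 CPM in 4D and 6D and 1.66 and 2.12 in 2E and 3E. Choroid plexus sums reached 205 CPM in letter D and 86.6 in letter E, and hemoglobin sums ranged from 79.6 to 139 and from 62.8 to 113. No hemoglobin gene passed the threshold for the letter. The Log2FCs were -0.066 for *Hba-a1* (q = 0.584), -0.19 for *Hbb-bs* (q = 0.118), and 0.091 for *Hbb-bt* (q = 0.719). The part of these markers in the letter effects was not tested.

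Whether the male genotype effect itself depended on the letter was also tested, again as an added split, in which WT males of letter E are 1 animal. None of the 10 genes passed with edgeR, against 0.0112% of all genes tested, and 3 had an unadjusted p-value under 0.05, against 6.11% of all genes tested. The effect in letter E minus that in letter D was 0.29 for *Nes* (q = 0.797), 0.32 for *Top2a* (q = 0.797), and 0.28 for *Prox1* (q = 0.779). In females, where *Kdm5c*-HET of letter D is 1 animal, none passed either, against 0.0112% of all genes. There 2 genes had an unadjusted p-value under 0.05, against 5.22% of all genes tested, *Prox1* as given above and *Hes5* with 0.60 (q = 0.943).

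To examine whether these genes varied together, log2 CPM was correlated across the 16 animals for the 45 pairs of genes. Adjusted over the pairs, 15 had a Pearson correlation with q under 0.1, of which 13 were positive. Of these 13, 9 had r over 0.5 for deviations from group means. Such deviations remove the group but keep the letter difference. The permutations shuffled all 16 animals without regard to group or letter. The strongest pair was *Mki67* and *Top2a* (r = 0.86, p = 4e-05, q = 0.0018 by permutation, Spearman's rho = 0.79, p = 0.00066). It remained at 0.82 without the 2 animals farthest in *Mki67*, at 0.84 for deviations from group means, at 0.80 in letter D, and at 0.54 in letter E, with 8 animals per letter.

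The pairs with *Nes* differed between the pooled and the within-letter values. *Nes* and *Dcx* had r = 0.71 over the 16 animals (q = 0.02, rho = 0.82, permutation p = 0.00016 for rho) and 0.74 without the 2 animals farthest in *Nes*, but 0.30 within letter D and 0.35 within letter E. *Nes* and *Mki67* had r = 0.66 over all animals (q = 0.0355, rho = 0.68) but -0.12 within letter D and 0.58 within letter E. *Nes* and *Top2a* had 0.70 (q = 0.02, rho = 0.71), with -0.33 and 0.84 within the letters. Within letter D, *Nes* was thus not positively correlated with either division gene. For deviations from group means, which still hold the letter difference, r was 0.68 for *Nes* and *Dcx*. It was 0.90 for *Nes* and *Mki67* and 0.85 for *Nes* and *Top2a*.

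*Pax6* and *Dcx* correlated over all animals (r = 0.73, q = 0.02, rho = 0.83), with 0.33 in letter D and 0.77 in letter E. *Eomes* and *Dcx* did so with similar values in each letter (r = 0.68, q = 0.0294, rho = 0.63, 0.51 in letter D and 0.67 in letter E), although r was 0.45 without the 2 animals farthest in *Eomes*. *Hes5* and *Prox1* ran opposite to each other (r = -0.65, q = 0.0373, rho = -0.61). That relation was -0.82 in letter E and -0.012 in letter D, and -0.48 without the 2 animals farthest in *Hes5*. *Sox2* and *Prox1* made the other negative pair (r = -0.56, q = 0.077, rho = -0.48), with -0.69 in letter E and -0.14 in letter D.

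**Figure D5:**
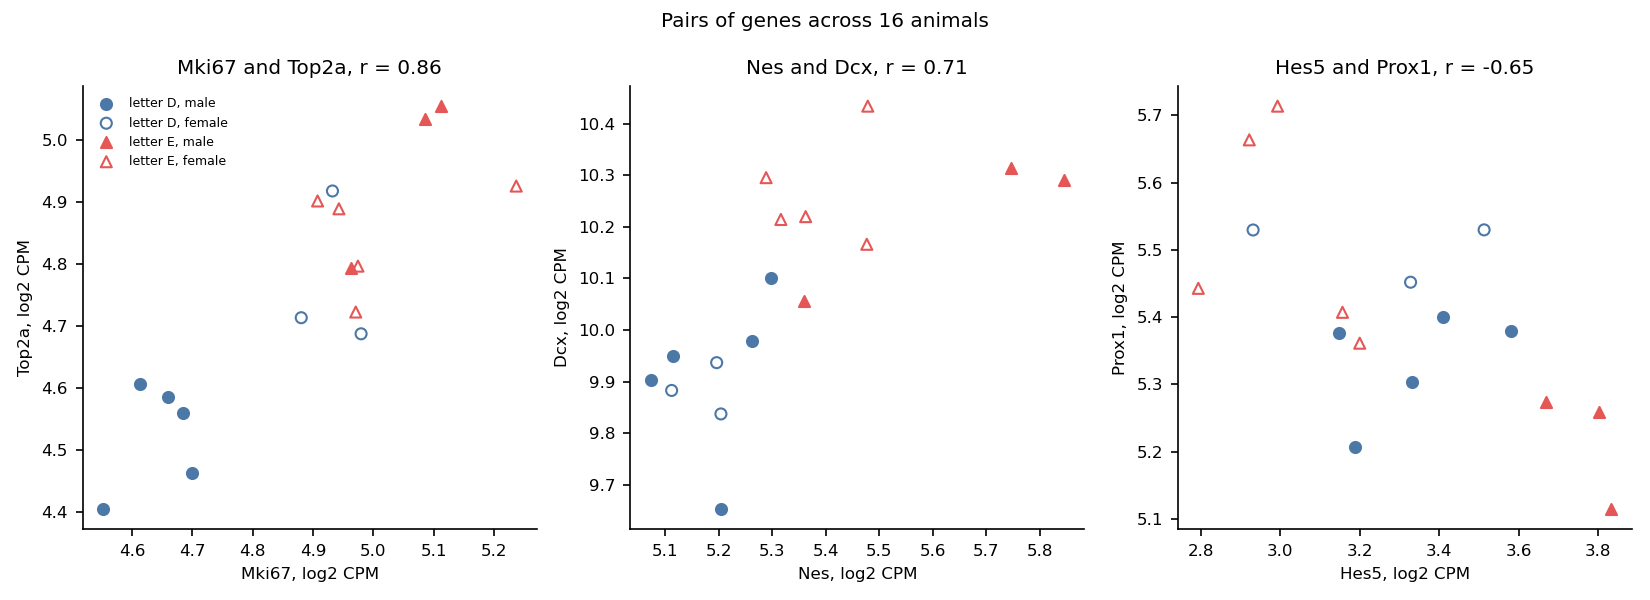
Log2 CPM of *Top2a* against *Mki67*, *Dcx* against *Nes*, and *Prox1* against *Hes5* in the 16 animals (1 point each), with circles for letter D, triangles for letter E, and filled symbols for males. The pairs have r of 0.86, 0.71, and -0.65, and in the middle panel most animals of letter E lie above and to the right of those of letter D, and r within the letters is 0.30 (D) and 0.35 (E).

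For each gene, the 3 genes of highest correlation over the 16 animals were also listed as a description. Only 1 of these 30 could be paired with a symbol, *Grik2*, a kainate receptor subunit that followed *Pax6* with r = 0.91. The closest followers of *Dcx* had r between 0.97 and 0.99, those of *Mki67* between 0.94 and 0.96, and those of *Nes* between 0.897 and 0.905. *Neurod1* had the weakest, between 0.76 and 0.77. All these points share the letter and the group of each animal.

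The wider neurogenesis pathway could be read only in small part. Of 84 further genes of radial glia, Notch signaling, intermediate progenitors, newborn neurons, and cell division, 2 could be paired with an identifier. Both were paired through the list of genes the study called on these samples. They were thus already selected for a difference in these animals. Neither their calls, nor the separation of their groups, nor their direction is independent evidence. Both passed the threshold in *Kdm5c*-KO males. *Hes6*, a Hes family member that promotes neuronal differentiation, was at 34.5, 33.1, 34.7, and 31.2 CPM in WT males 1E, 2D, 5D, and 7D and at 44.5, 48.8, 40.0, and 42.6 in *Kdm5c*-KO males 2E, 3E, 4D, and 6D. The groups did not overlap, and the *Hes6* Log2FC was 0.40 (SE 0.08, q = 0.00886). In females, it was 0.24 (SE 0.08, q = 0.458), and for the letter 0.20 (SE 0.04, q = 0.00378).

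*Sp9*, a transcription factor of ganglionic eminence derived interneurons, was at 15.4, 14.7, 15.0, and 15.3 CPM in the same WT males and at 19.2, 24.3, 16.7, and 21.3 in the same *Kdm5c*-KO males. Every *Kdm5c*-KO male lay above every WT male, and the *Sp9* Log2FC was 0.44 (SE 0.10, q = 0.0186). In females, it was 0.038 (SE 0.10, q = 0.996), and the difference of the sexes was 0.40 (SE 0.14, q = 0.709). For the letter, the *Sp9* Log2FC was 0.092 (q = 0.431).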

How the data were processed

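Forebrain RNA of 16 animals was analysed. Per the labels and methods, the authors mapped paired-end reads to mm10 with STAR 2.5.3a, kept uniquely mapped reads without duplicates, and counted them with featureCounts (Subread 1.5.0). They deposited raw counts per gene, without normalization. Columns were matched to animals by label. No pair of animals within a group agreed within sampling noise (chi-square per gene 2.78 to 13.9 over 24 pairs). Counts were filtered (filterByExpr), normalized (TMM), and fitted over all animals with 1 mean per group in edgeR 4.0.16 (R 4.3.3), with q by the Benjamini-Hochberg method over 17866 genes and a threshold of 0.1. For the letter, it was added as a term. Log2 CPM used a prior count of 2. Correlations were tested with 100000 permutations. The test was tried on simulated data. Alternatives were DESeq2 1.42.0, its size factors in edgeR, other filters, the letter as a covariate or each letter alone, the 8 animals of a sex, a threshold of 0.05, and leaving out each animal. All 10 members, the called genes of each further list, and 3 followers per member are named. The members and lists were chosen with earlier results of these data known. Gene symbols beyond the members came from 1021 identifier pairs in a supplementary list. *Kdm5c*, sex-linked genes, and sequences are not analysed here. Some paired markers are not reported here.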

Additional observations from a re-analysis of the deposited data

Results flagged for a closer look

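Each gene was checked in each group of 4 animals, 40 checks in all, for an animal whose gap to its nearest neighbour, as a share of the group's range, exceeded Dixon's 95% critical value for 4 samples. Chance gives about 1 in 20 groups, and 4 animals stood apart. *Prox1* was low in WT male 1E, at 34.6 CPM, with a gap of 0.907 of the range. *Pax6* was high in *Kdm5c*-HET 8E, at 12.5 CPM against 10.4 to 10.6 in the other 3 (0.895). *Mki67* was high in WT female 5E, at 37.6 CPM (0.842), and low in *Kdm5c*-HET 6E, at 29.9 CPM (0.875), although the *Kdm5c*-HET values spanned only 29.9 to 31.5 CPM.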

How the results depend on the processing

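In males, 1 gene was called, but 2 were without the filter on low counts (*Nes* and *Dcx*, q = 6.3e-05 for *Dcx*) and with the letter as a covariate, and 0 were in the fit of 8 males (*Nes* q = 0.146), in letter D, and at a threshold of 0.05. Leaving out single animals gave 0 to 1. In females, letter E alone gave 1 call (*Prox1*). Between WT sexes, 4 were called without the filter, and leaving out animals gave 0 to 1. For the letter, females alone gave 2 calls, and leaving out animals gave 4 to 5. *Mki67* and *Top2a* had letter Log2FCs of 0.097 and 0.10 in females (q = 0.468 and 0.469), and *Top2a* 0.15 in WT animals (q = 0.256). The correlation of *Mki67* and *Top2a* was 0.54 in letter E, that of *Nes* and *Dcx* 0.30 in letter D and 0.35 in letter E, and that of *Hes5* and *Prox1* -0.012 in letter D.

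Several Log2FCs changed sign, none of them called in the main fit or in the fit that turned the sign. In males they were *Hes5* with the letter as a covariate (-0.031), in letter D *Hes5* (-0.12), *Mki67* (-0.027), and *Top2a* (-0.059), and in letter E *Sox2* (-0.043), *Hes5* (-0.098), *Neurod1* (-0.015), and *Prox1* (0.15). In females they were *Nes* (-0.024) and *Dcx* (-0.020) with the covariate, *Prox1* (0.037) and *Mki67* (0.073) in letter D, and *Pax6* (-0.075), *Nes* (-0.022), *Hes5* (0.10), *Neurod1* (-0.033), and *Dcx* (-0.10) in letter E. For the letter they were *Hes5* (-0.053) and *Prox1* (0.012) in WT animals and *Sox2* (-0.044), *Hes5* (-0.22), and *Prox1* (0.059) in females. Leaving out single animals gave ranges across 0 in males for *Sox2* (-0.012 to 0.072) and *Hes5* (-0.10 to 0.13), in females for *Sox2* (-0.044 to 0.051), *Pax6* (-0.0086 to 0.13), *Nes* (-0.0042 to 0.12), *Neurod1* (-0.015 to 0.12), *Dcx* (-0.036 to 0.17), and *Mki67* (-0.087 to 0.037), and for the letter for *Sox2* (-0.0061 to 0.062) and *Prox1* (-0.054 to 0.042). Of these genes, *Prox1* was called below 0 in females of letter E, and *Hes5* above 0 for the letter in males. The cause of these sign changes was not tested. No paired analysis was possible because no label ties single animals of different groups to each other. The letter, which the groups share, was a covariate instead. Precision was limited by 4 animals per group and by letters held by 1 animal in WT males and *Kdm5c*-HET females. For *Eomes*, low counts added to the spread, with a counting SD of 0.16 against 0.40 between animals within groups (log2 CPM).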
